A study of Mus musculus with 16 samples.

Results

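The genes described here encode laminin chains, and 9 of them (Lama1, Lama2, Lama3, Lama4, Lama5, Lamb1, Lamb2, Lamb3 and Lamc1) were followed by name among 23930 amplicon targets in whole skin of 12-week-old mice. The 4 groups held 4 mice each, and every mouse, controls included, carried Zc3h12a flanked by loxP sites on both copies. Zc3h12a encodes MCPIP1 (Regnase-1), an endoribonuclease that degrades mRNAs of inflammatory mediators. Control mice had no Cre gene. EKO mice had the Krt14Cre transgene, active in keratinocytes. MKO mice had LysMCre, which is driven by the Lyz2 gene of myeloid cells. EMdKO mice had both Cre genes, so the design sets loss in keratinocytes, in myeloid cells, in both or in neither side by side. Cre expressed in these cells leaves the other cells of the skin with an intact gene. The set was chosen by gene name, but with the counts of these 16 libraries already known and no cutoff on any value, so its values in the group comparisons describe these mice and support nothing independently. Lamc3, which encodes the gamma3 chain, was also targeted and is given beside them.

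Laminins are secreted trimers of 1 alpha, 1 beta and 1 gamma chain that polymerise into the sheet of the basement membrane and bind integrins and dystroglycan on cells. In skin, a trimer that holds the chains alpha3 and beta3 anchors basal keratinocytes to the dermis through hemidesmosomes. Trimers with alpha5 lie under the epidermis and around follicles and vessels, those with alpha4 around vessels and fat cells, those with alpha2 around muscle fibres and Schwann cells, and alpha1 is best known from embryonic basement membranes.

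Library depth was 6962474 to 12086327 counts on targets, and levels below are CPM, the counts per 1000000 reads of a library after TMM scaling. Each target is 1 short amplicon, so levels can be compared between mice for a gene but not between genes. Basal keratin Krt5 lay between 1970 and 5151 CPM and the fibroblast collagen gene Col1a1 between 9631 and 29885 CPM in the 16 libraries, so both layers of the skin were present in each. Zc3h12a averaged 24.7 ± 4.99 CPM (SD, n = 4) in Control, 26.5 ± 7.55 in MKO, 8.63 ± 2.10 in EKO and 5.32 ± 0.617 in EMdKO. The samples also differed in tissue content. The summed level of 17 hair shaft and inner root sheath markers ran from 44.0 to 40337 CPM in Control and from 85.0 to 7823 in EKO, but from 17.1 to 635 in MKO (EMdKO, 29.1 to 8353). That of 19 skeletal muscle markers ran from 32091 to 60749, from 34659 to 80615, from 47999 to 139801 and from 29284 to 68018 CPM in the same order.

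All 9 laminin genes had enough counts to be tested. In edgeR's quasi-likelihood test over 13633 genes with Benjamini-Hochberg adjustment, only Lama1 passed the adjusted p threshold of 0.05, in 2 of the 9 comparisons fitted. These were EKO against MKO, where 0.858% of all genes were called, and the mean effect of Krt14-Cre, where 0.924% were called. The mean effect compares the mice with Krt14Cre (EKO and EMdKO) with those without (Control and MKO). Since 1 of 9 genes is the smallest count above none, nothing is read from it against that background. The other 8 genes passed in none of the 9 comparisons.

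**Figure D1:**
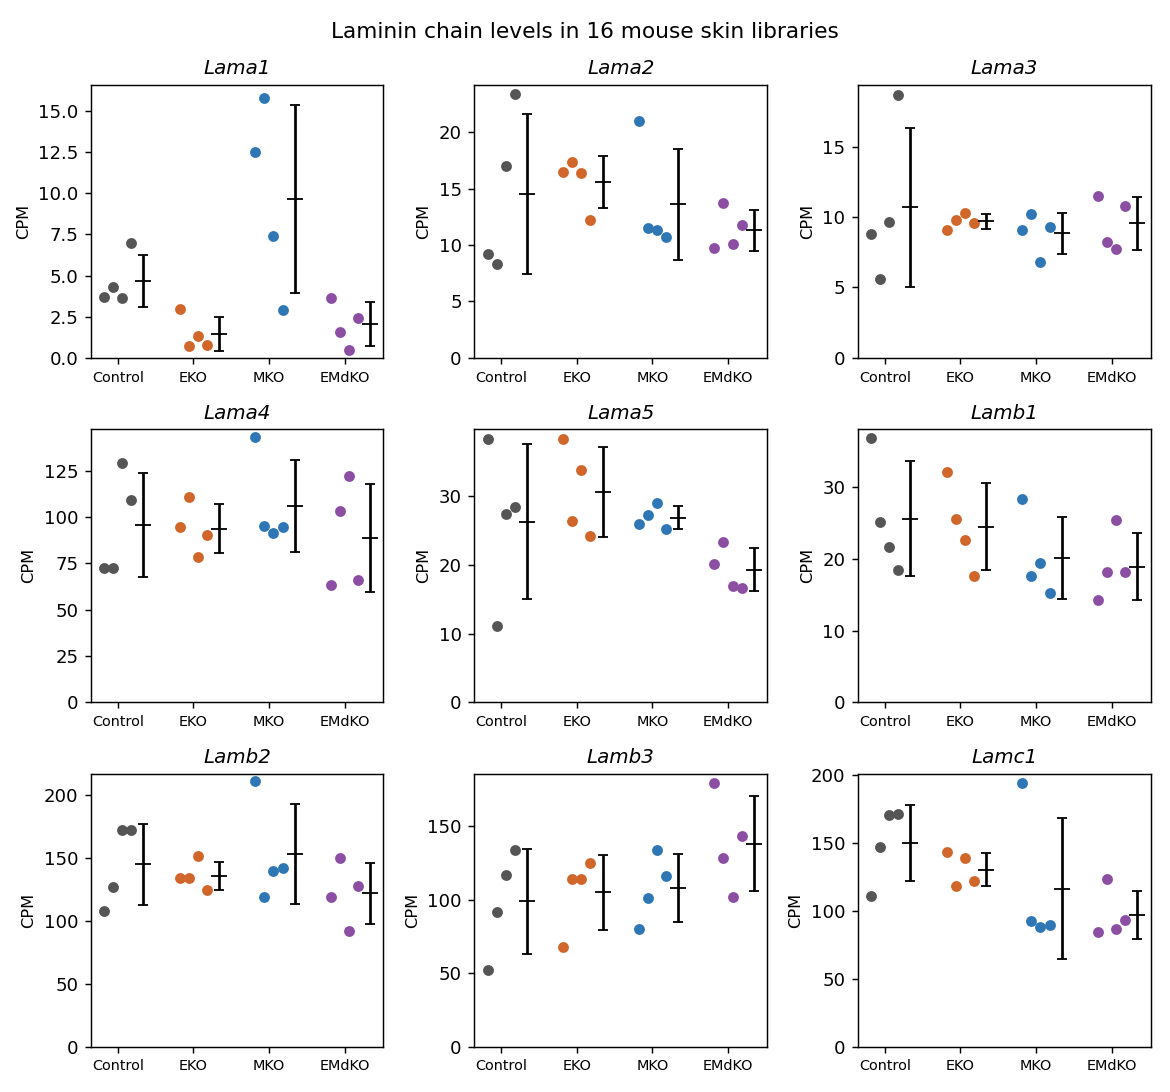
Level of each laminin gene (CPM, linear axes from 0) in each of the 16 libraries, by group. Dots are mice 1 to 4 from left to right, and the bar beside them is the mean ± SD of 4 mice. Lama1 is lower in EKO and EMdKO than in MKO, with overlap at the edges, and MKO mouse 1 stands above the other MKO mice for Lama2, Lama4 and Lamc1.

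Lama1, the gene of the alpha1 chain, had the widest range as a ratio, from 0.476 to 15.8 CPM, or 5 to 125 counts. Control mice 1 to 4 had 3.72, 4.32, 3.64 and 7.00 CPM. In EKO they were 2.99, 0.698, 1.33 and 0.788 CPM, and in EMdKO 3.65, 1.57, 0.476 and 2.42. MKO mice 1 to 4 had 12.5, 15.8, 7.39 and 2.89 CPM. Thus MKO mice 1 to 3 stood above every other mouse (MKO mouse 3 only just above Control mouse 4), every EKO mouse lay below every Control mouse, and MKO mouse 4 lay within the range of EKO and EMdKO. By mean level the order was MKO (9.65 ± 5.69 CPM), Control (4.67 ± 1.58), EMdKO (2.03 ± 1.34) and EKO (1.45 ± 1.06), and each group overlapped with the next.

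Fitted over all genes, Lama1 was lower in EKO than in MKO, with a log2 fold change of -2.71 and an SE of 0.60 (adjusted p = 0.0468 by edgeR). Averaged over both backgrounds, it was lower with Krt14Cre than without, at 1.74 ± 1.16 against 7.16 ± 4.69 CPM (SD, n = 8 each) and -1.95 ± 0.41 on the log2 scale (edgeR quasi-likelihood, adjusted p = 0.0340). Against Control, the changes were -1.67 ± 0.60 in EKO (adjusted p = 0.608), -1.18 ± 0.57 in EMdKO (adjusted p = 0.629) and 1.05 ± 0.55 in MKO (adjusted p = 0.560), all from the same edgeR fit and none past the threshold. EMdKO against MKO gave -2.23 ± 0.57, which did not pass with edgeR (adjusted p = 0.217) and did with DESeq2 (-2.25 ± 0.56, adjusted p = 0.0117), a tool that called 1.07% of all genes there, against 0.00734% with edgeR. The interaction of both Cre genes was -0.56 ± 0.82 (edgeR quasi-likelihood, adjusted p = 0.999).

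Both Lama1 calls lay close to the threshold. The EKO against MKO call held in 5 of the 16 fits that left out a library (without Control mouse 1 or 4, EKO mouse 1, MKO mouse 4 or EMdKO mouse 3) and was lost in the other 11, at adjusted p from 0.0534 without Control mouse 2 to 0.166 without EKO mouse 3 (edgeR quasi-likelihood). The Krt14-Cre call held without Control mouse 1, EKO mouse 1, MKO mouse 4 or EMdKO mouse 1. It was lost in the other 12 fits, at adjusted p from 0.0513 without EMdKO mouse 3 to 0.0940 without EKO mouse 2. Over the 16 fits the log2 fold changes stayed between -3.35 and -2.37 for EKO against MKO and between -2.27 and -1.77 for Krt14-Cre. With the hair score as a covariate, EKO against MKO was -2.11 and not called (edgeR quasi-likelihood, adjusted p = 0.136), and Krt14-Cre stayed called. The 6 suprabasal keratinocyte markers ran higher in some mice with Krt14Cre, with sums of 8238 to 26055 CPM in EKO and 9947 to 17347 in EMdKO, beside 6776 to 14498 in Control and 7635 to 11747 in MKO. Markers of other tissues stood on the same side as Lama1 in EKO against MKO, with negative values for 10 of 10 endothelial (median log2 fold change -0.42), 10 of 10 adipocyte (-0.33), 8 of 9 pericyte and smooth muscle (-0.56) and 8 of 9 Schwann cell markers (-0.64). For Krt14-Cre the medians of these lists were -0.19, -0.25, -0.19 and -0.39, with 10 of 10, 9 of 10, 8 of 9 and 8 of 9 negative. Skeletal muscle (16 of 19, median -0.51) and dermal fibroblast markers (7 of 10, -0.25) were also mostly negative in EKO against MKO. Basal keratinocyte markers were split (4 of 7 negative, -0.19). In that comparison, 17 of 17 hair (4.27), 6 of 6 suprabasal (1.01) and 6 of 7 melanocyte markers (2.76) were positive. So were 6 of 8 macrophage and neutrophil markers (0.15). For Krt14-Cre these lists had medians of -0.24, -0.21, 0.11, 0.66, 0.67, -0.21 and -0.02, in this order. The part of these tissues in the Lama1 levels was not tested. In whole skin, fewer cells that express a gene and less RNA per cell cannot be told apart. Lama1 lies on chromosome 17 from 67697259 to 67822647 on the plus strand in GENCODE vM21 (GRCm38), a build that the count files do not name.

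**Figure D2:**
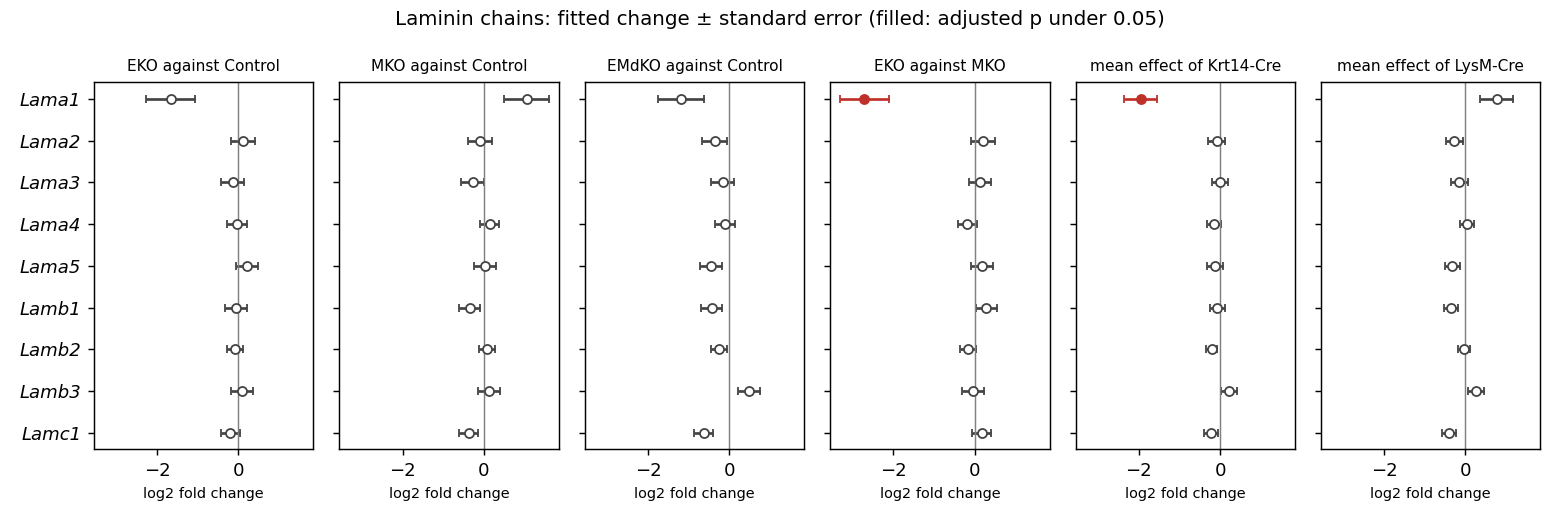
Fitted log2 fold change of each laminin gene with its standard error in 6 of the comparisons. Filled red points passed the adjusted p threshold of 0.05 over all genes: Lama1 in EKO against MKO (-2.71) and for the mean effect of Krt14-Cre (-1.95). All other points are open.

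The chains of the dermal-epidermal anchor were called in no comparison. Lamb3, whose beta3 chain occurs only in the epithelial anchoring trimer, had 52.1, 91.5, 117 and 134 CPM in Control mice 1 to 4, and 67.5, 114, 114 and 125 CPM in the EKO mice. Lamb3 reached 80.1, 101, 134 and 116 CPM in MKO, and 179, 128, 102 and 143 in EMdKO. The highest value was in an EMdKO mouse and the lowest in a Control mouse, and all 4 groups overlapped. The log2 fold change of Lamb3 was 0.48 ± 0.27 in EMdKO against Control, 0.09 ± 0.27 in EKO and 0.13 ± 0.27 in MKO, none past the threshold (edgeR quasi-likelihood, BH adjusted p = 0.693, 0.954 and 0.911).

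Lama3, which encodes alpha3, lay between 5.61 and 18.7 CPM, and its mean was 10.7 ± 5.64 CPM in Control. The means of EKO, MKO and EMdKO were 9.69 ± 0.508, 8.85 ± 1.46 and 9.57 ± 1.88. Both extremes were Control mice, mouse 2 and mouse 4. Without Control mouse 4 the Lama3 differences from Control changed sign, from -0.14 to 0.27 in EKO, from -0.27 to 0.14 in MKO and from -0.16 to 0.25 in EMdKO, all uncalled. The count cannot separate the long and short alpha3 isoforms, since the gene has a single target.

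Lama5, the gene of alpha5, was lowest on average in the double knockout. The EMdKO mice had 20.2, 23.3, 16.9 and 16.6 CPM, where the EKO mice had 38.4, 26.4, 33.9 and 24.3 and the MKO mice 26.0, 27.3, 29.1 and 25.2. Every EMdKO mouse therefore lay below every EKO and every MKO mouse, a lack of overlap that 5.57% and 5.99% of all tested genes also showed. Control mice 1 to 4 had 38.4, 11.1, 27.5 and 28.4 CPM, and mouse 2 lay below all others, so that EMdKO and Control overlapped. The log2 fold change was -0.68 ± 0.27 for EMdKO against EKO (edgeR quasi-likelihood, BH adjusted p = 0.706), -0.48 ± 0.27 against MKO (adjusted p = 0.733) and -0.45 ± 0.27 against Control (adjusted p = 0.732), and none passed. The interaction was -0.71 ± 0.38 (edgeR quasi-likelihood, adjusted p = 0.999).

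Lamc1 encodes gamma1, the gamma chain of most laminins outside the epidermal anchor. Control mice 1 to 4 had 111, 147, 170 and 171 CPM, and the EKO mice 143, 118, 139 and 122. Lamc1 was at 194, 92.5, 88.3 and 89.2 CPM in the MKO mice, with 84.4, 123, 86.8 and 93.5 in EMdKO. The mice with LysMCre overlapped with those without it, since MKO mouse 1 and EMdKO mouse 2 lay above Control mouse 1. The other mice with LysMCre lay between 84.4 and 93.5 CPM, below every mouse without it, a split made after the values were seen. Lamc1 stood at -0.63 ± 0.24 on the log2 scale in EMdKO against Control (edgeR, BH adjusted p = 0.479) and at -0.37 ± 0.23 in MKO (adjusted p = 0.644). The mean effect of LysM-Cre was -0.40 ± 0.17 (edgeR quasi-likelihood, adjusted p = 0.321). MKO mouse 1 also had the highest skeletal muscle sum, 139801 CPM where the other MKO mice had 47999 to 62590. Without it, MKO against Control was -0.73 for Lamc1, still uncalled, and EMdKO against MKO moved from -0.26 to 0.10. Over the 16 libraries Lamc1 went with the skeletal muscle score at r = 0.57 (permutation p = 0.0168, adjusted p = 0.0755) and rho = 0.58 (permutation p = 0.0205, adjusted p = 0.111), at 0.84 within groups and at 0.27 without the 2 farthest libraries. With that score as a covariate the Lamc1 changes were -0.61 ± 0.15 in EMdKO against Control, -0.63 ± 0.15 in MKO and -0.52 ± 0.11 for LysM-Cre, all uncalled (edgeR, adjusted p = 0.224, 0.488 and 0.0739), and EMdKO against MKO was 0.01 ± 0.15.

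The chains of muscle, nerve and vessel basement membranes overlapped between all groups. Lama2, the alpha2 gene whose loss causes a congenital muscular dystrophy, lay between 8.34 and 23.4 CPM and averaged 15.6 ± 2.31 CPM in EKO, 14.5 ± 7.10 in Control, 13.6 ± 4.93 in MKO and 11.3 ± 1.80 in EMdKO. Lama4, the alpha4 gene, lay between 63.1 and 143 CPM, with means of 106 ± 24.7 in MKO, 95.7 ± 28.0 in Control, 93.6 ± 13.3 in EKO and 88.6 ± 29.0 in EMdKO. Lamb2, whose beta2 chain is concentrated at neuromuscular junctions and in the kidney glomerulus, lay between 91.9 and 211 CPM, with means of 153 ± 39.7, 145 ± 32.4, 136 ± 11.3 and 122 ± 24.0 in the same order. For all 3 genes the highest mean exceeded the lowest by less than the widest SD within a group, and no comparison was called.

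Lamb1 encodes beta1, the partner of gamma1 in most tissues. Control mice 1 to 4 had 36.9, 25.2, 21.7 and 18.5 CPM, and the EKO mice 32.1, 25.6, 22.6 and 17.6. Lamb1 was at 28.4, 17.6, 19.4 and 15.2 CPM in the MKO mice, with 14.2, 18.1, 25.4 and 18.2 in EMdKO. Each group spanned much of the whole range. The log2 fold change against Control was -0.06 ± 0.26 in EKO, -0.35 ± 0.26 in MKO and -0.43 ± 0.26 for EMdKO mice (edgeR quasi-likelihood, BH adjusted p = 0.971, 0.708 and 0.733). With the hair score as a covariate, the MKO value moved from -0.35 to 0.07. Lamc3, which encodes gamma3, averaged 29.6 ± 4.63 CPM in EMdKO, 27.5 ± 9.14 in MKO, 26.3 ± 4.53 in Control and 24.0 ± 7.75 in EKO, and was called in no comparison.

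Counted over the 9 genes, laminins showed no called change against Control. In EKO, 0 of 9 were called (0% of all genes were), 1 reached an unadjusted p under 0.05 (Lama1), and the median log2 fold change was -0.06, beside -0.03 over all genes tested. In MKO, 0 of 9 were called (background 0.0293%), 0 reached an unadjusted p under 0.05, and the median was 0.03, beside 0.00. In EMdKO, 0 of 9 were called (background 0.0293%), 1 reached an unadjusted p under 0.05 (Lamc1), and the median was -0.36 with 8 of 9 values negative, beside -0.02 over all genes. Lamb3 was the positive one. Over all 13633 genes tested, 940 in EKO, 1306 in MKO and 1112 in EMdKO reached an unadjusted p under 0.05. DESeq2 also called 0 of 9 in these 3 comparisons, while it called 0.374% of all genes in EKO, 0.822% in MKO and 0.535% in EMdKO. Lama1 in EKO was the only laminin gene whose mice did not overlap with Control, where 2.26% of all genes showed no overlap in EKO, 3.08% in MKO and 3.67% in EMdKO mice. In EKO against MKO, 0 of 9 laminin genes were free of overlap, beside 10.3% of all genes. The 3 comparisons with Control share its mice. Zc3h12a, the deleted gene, was not called in EKO against Control (-1.52 ± 0.23, edgeR quasi-likelihood, adjusted p = 0.0820), though the groups did not overlap. In EMdKO it was called (-2.21 ± 0.24, edgeR quasi-likelihood, adjusted p = 0.000448). The absence of laminin calls therefore does not show that their levels were unchanged.

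In the remaining comparisons, edgeR called 0 of 9 in EMdKO against EKO (background 0.0147%; 1 at an unadjusted p under 0.05, Lama5), 0 in EMdKO against MKO (0.00734%; 1, Lama1), 0 for the interaction (0%; 0) and 0 for the mean effect of LysM-Cre (0.0440%; 1, Lamc1). Of all 13633 genes, 899, 1012, 465 and 1790 were at an unadjusted p under 0.05 in these comparisons, in the same order. DESeq2 called 0 laminin genes in these except for Lama1 in EMdKO against MKO, where its share over all genes was 1.07%. Its share was 0.0660% in EMdKO against EKO, 0.0220% for the interaction and 1.90% for LysM-Cre. It called Lama1 in EKO against MKO and for Krt14-Cre as well, where it called 4.56% and 2.32% of all genes.

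Some laminin genes rose and fell together across the 16 libraries whatever the group. All 36 pairs of the 9 genes were compared on log2 CPM with permutation tests of 100000 draws, two-sided and BH adjusted over the pairs, and 4 pairs passed for Pearson's r. The genes of the alpha2, beta2 and gamma1 chains, which assemble into a laminin of muscle synapses, formed 3 of them. Lama2 and Lamb2 had r = 0.77 (permutation p = 0.000470, adjusted p = 0.00732) and rho = 0.75 (permutation p = 0.001000, adjusted p = 0.0360). Lamb2 and Lamc1 had r = 0.74 (permutation p = 0.000610, adjusted p = 0.00732) and rho = 0.69 (permutation p = 0.00404, adjusted p = 0.0485). Lama2 and Lamc1 had r = 0.71 (permutation p = 0.00277, adjusted p = 0.0249) and rho = 0.66 (permutation p = 0.00695, adjusted p = 0.0625), so that pair did not pass by rank. Within groups, on deviations from the group means, r was 0.82, 0.85 and 0.76, and without the 2 libraries farthest from the median of the first gene it was 0.64, 0.60 and 0.52.

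The fourth pair ran in opposite directions. Lamb1 and Lamb3, the genes of beta1 and beta3, had r = -0.88 (permutation p = 1e-05, the smallest that 100000 draws can give, adjusted p = 0.000360) and rho = -0.72 (permutation p = 0.00221, adjusted p = 0.0398). It was -0.89 within groups and -0.76 without the 2 libraries farthest from the Lamb1 median. The mouse with the most Lamb1, Control mouse 1 at 36.9 CPM, had the least Lamb3, 52.1 CPM. EMdKO mouse 1 had the least Lamb1, 14.2 CPM, and the most Lamb3, 179 CPM. Lama3 and Lamb3, whose chains share a trimer, had r = 0.32 and did not pass (permutation p = 0.215, adjusted p = 0.541; rho = 0.48, permutation p = 0.0601, adjusted p = 0.335).

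**Figure D3:**
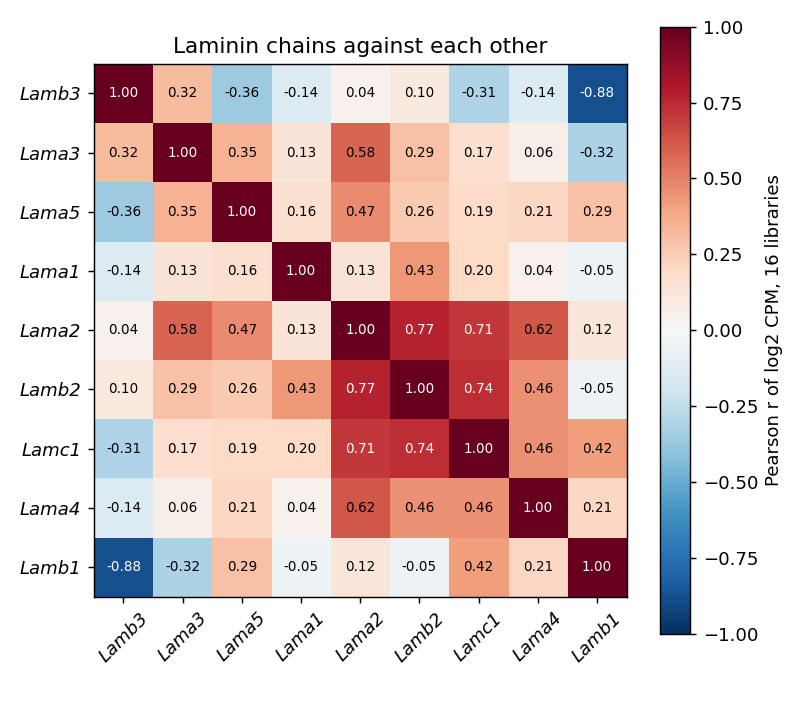
Pearson correlation of log2 CPM between the 9 laminin genes over the 16 libraries (colour from -1 to 1, value in each square). Lama2, Lamb2 and Lamc1 form a positive block (0.71 to 0.77), and Lamb1 against Lamb3 is the lowest square (-0.88).

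Some tissue markers moved with some of these genes. Over 27 relations of the 9 genes with 3 marker scores (mean log2 CPM of the hair, muscle and basal keratinocyte lists), 5 passed for Pearson's r after BH adjustment. Scores of the other marker lists, such as the endothelial, fibroblast, adipocyte and Schwann cell lists, were not set against the genes. Lamb3 went with the basal keratinocyte score at r = 0.80 (permutation p = 0.000310, adjusted p = 0.00837) and rho = 0.81 (permutation p = 0.000290, adjusted p = 0.00783), with r = 0.79 within groups and 0.78 without the 2 farthest libraries. Lamb1 ran against that score at r = -0.70 (permutation p = 0.00230, adjusted p = 0.0207) and rho = -0.67 (permutation p = 0.00543, adjusted p = 0.0586), with -0.79 within groups and -0.62 without the 2 farthest libraries. All 7 basal markers were tested, and their sum ran from 9469 to 12597 CPM in EMdKO, beside 6435 to 10880 in MKO, 6668 to 13648 in EKO and 6693 to 12554 in Control. The list holds Itgb4 and Col17a1, which are also hemidesmosome genes.

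Like that of Lamb1 with the basal score, the other 3 relations did not pass by rank. These 3 were weaker without the 2 farthest libraries, a step that also narrows the range of the score. Lamb2 went with the skeletal muscle score at r = 0.74 (permutation p = 0.00153, adjusted p = 0.0207) and rho = 0.61 (permutation p = 0.0149, adjusted p = 0.101), but at 0.37 without the 2 farthest libraries. Lamb1 went with the hair score at r = 0.66 (permutation p = 0.00559, adjusted p = 0.0377) and rho = 0.53 (permutation p = 0.0388, adjusted p = 0.174), and at 0.42 without the 2 farthest libraries. Lamb3 ran against the hair score at r = -0.63 (permutation p = 0.00719, adjusted p = 0.0388) and rho = -0.46 (permutation p = 0.0708, adjusted p = 0.239), and at -0.30 without them. Within groups these 3 had r = 0.75, 0.57 and -0.65. The part of tissue content in the laminin levels was not tested further.

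**Figure D4:**
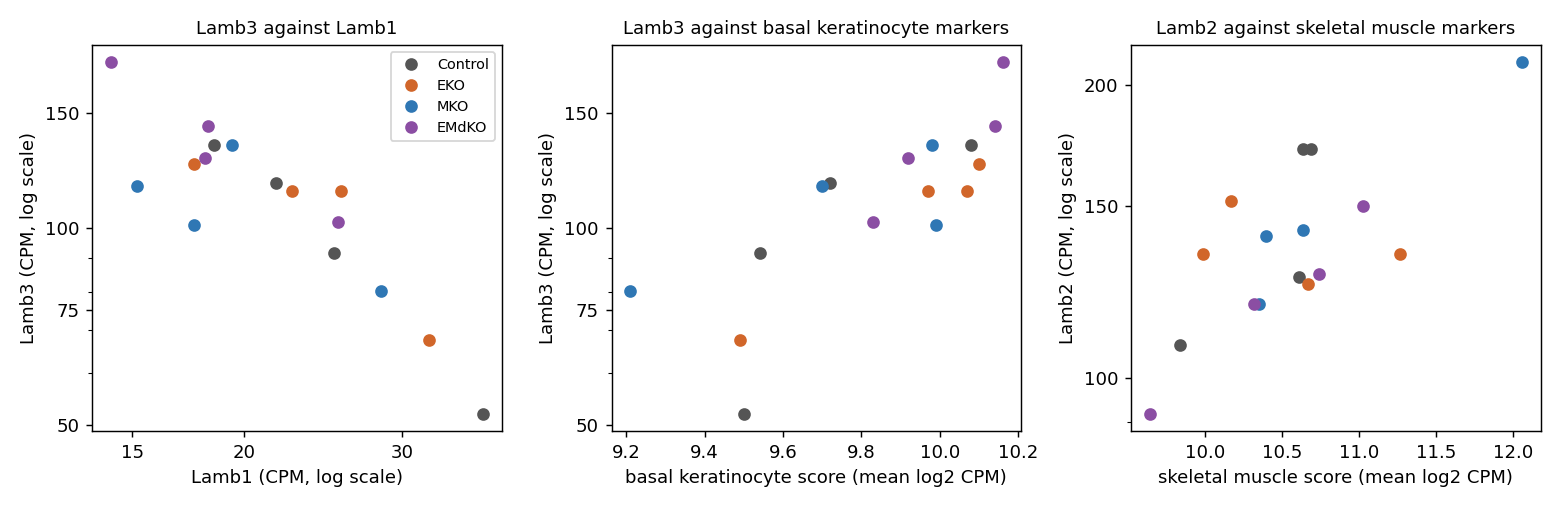
Each point is a library, coloured by group. Left, Lamb3 against Lamb1 (both CPM, log axes), middle, Lamb3 (CPM, log axis) against the basal keratinocyte score (mean log2 CPM of 7 markers), and right, Lamb2 (CPM, log axis) against the skeletal muscle score (mean log2 CPM of 19 markers). Lamb3 falls with Lamb1 (r = -0.88) and rises with the basal score (r = 0.80), and MKO mouse 1 sets the right end of the muscle panel.

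RefSeq (GRCm38.p6) gave promoter windows, 250 bases before to 50 after a start site, for 5 of the 9 laminin genes. Those of the genes that moved in opposition (Lamb1 and Lamb3) and together (Lama2 and Lamb2) are shown 5′ to 3′ on the gene's strand, with matches to the GC box GGGCGG on either strand in capitals. RefSeq lists a second, downstream window for Lamb3, which is not shown.
Lamb1 (chr12:31265043-31265342, plus strand): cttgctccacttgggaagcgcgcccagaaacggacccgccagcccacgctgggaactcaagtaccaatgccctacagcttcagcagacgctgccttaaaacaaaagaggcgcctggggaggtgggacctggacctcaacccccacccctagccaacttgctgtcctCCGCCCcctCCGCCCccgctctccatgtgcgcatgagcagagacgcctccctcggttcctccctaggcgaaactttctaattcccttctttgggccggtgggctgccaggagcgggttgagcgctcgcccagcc
Lamb3 (chr1:193301744-193302043, plus strand): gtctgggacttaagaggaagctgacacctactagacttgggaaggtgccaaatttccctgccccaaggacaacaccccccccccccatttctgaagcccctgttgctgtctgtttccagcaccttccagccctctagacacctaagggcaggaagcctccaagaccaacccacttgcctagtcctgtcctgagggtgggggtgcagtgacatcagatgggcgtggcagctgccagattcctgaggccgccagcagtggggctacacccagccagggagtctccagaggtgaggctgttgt
Lama2 (chr10:27616893-27617192, minus strand): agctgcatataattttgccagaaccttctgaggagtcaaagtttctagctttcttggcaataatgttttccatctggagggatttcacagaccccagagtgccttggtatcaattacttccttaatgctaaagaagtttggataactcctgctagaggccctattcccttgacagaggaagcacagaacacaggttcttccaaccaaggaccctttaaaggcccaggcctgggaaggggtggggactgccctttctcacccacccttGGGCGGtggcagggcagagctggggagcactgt
Lamb2 (chr9:108479612-108479911, plus strand): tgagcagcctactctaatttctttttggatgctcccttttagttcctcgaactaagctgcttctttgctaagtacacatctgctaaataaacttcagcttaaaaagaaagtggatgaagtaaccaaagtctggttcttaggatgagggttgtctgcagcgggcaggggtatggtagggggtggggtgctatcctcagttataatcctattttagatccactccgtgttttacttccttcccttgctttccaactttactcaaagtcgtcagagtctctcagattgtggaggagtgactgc
The GC box occurred at 2 places in the Lamb1 window and at 1 in that of Lama2, and 35.7% of 32851 RefSeq windows of this length hold at least 1. Neither the TATA box TATAAA (in 13.6% of windows) nor the AP-1 motif TGANTCA (7.8%) was found in these windows on either strand. The motifs searched do not overlap each other. The 4 windows differed in base composition, with 63.7% G or C in Lamb1, 59.3% in Lamb3, 50.3% in Lama2 and 44.0% in Lamb2.

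The genes most like each laminin gene over the 16 libraries were taken from 13439 other tested genes by Pearson's r, 3 for each. They are the extremes of that many, so they carry no p. Nearest to Lamb3 were Acsbg1 (r = 0.91, rho = 0.81), an acyl-CoA synthetase gene, Adam1a (0.89, 0.82) and Col7a1 (0.89, 0.87), which encodes the collagen of the anchoring fibrils that hold the epidermal basement membrane to the dermis. Nearest to Lamc1 were the matrix genes Fbln2 (fibulin-2, 0.86, 0.86) and Col6a3 (collagen VI, 0.84, 0.81), and Scarf1 (0.82, 0.87). Nearest to Lamb2 were Serpinb6a (0.88, 0.75), As3mt (0.86, 0.90) and the muscle caveolin gene Cav3 (0.86, 0.74). Nearest to Lamb1 were the lysosomal protease gene Ctsb (0.87, 0.85), the amino acid transporter gene Slc7a8 (0.85, 0.84) and Zfat (0.84, 0.87).

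Lama1 was nearest to Tfcp2 (r = 0.89, rho = 0.81), Trpm3 (0.87, 0.87), a cation channel gene, and Tgm7 (0.87, 0.88), a transglutaminase gene. Lama2 was nearest to Lgals1 (galectin-1, 0.86, 0.82), Cenpv (0.84, 0.81) and Sav1 (0.84, 0.85). Lama5 was nearest to Adamts1 (0.85, 0.65), Ddx52 (0.85, 0.75) and Bhlhb9 (0.84, 0.56). Lama4 was nearest to Adgre5 (0.79, 0.81), Clec1a (0.78, 0.74) and Gbgt1 (0.76, 0.71). For Lama3 the closest, Cenpb, Tjp3 and 4930429B21Rik, reached 0.77, 0.76 and 0.76, with rho of 0.83, 0.75 and 0.76.

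The partners of laminins in the basement membrane were read from the same fit. Of 44 listed genes, 42 were tested and 0 were called in any of the 9 comparisons by edgeR. At an unadjusted p under 0.05 there were 1 of 42 in EKO against Control, 3 in MKO and 5 in EMdKO. Over all 13633 genes tested, 940, 1306 and 1112 were under it, so nothing is read from these counts. DESeq2 called Nid2 in EMdKO against Control (-1.15 ± 0.28, adjusted p = 0.0170) and for the mean effect of LysM-Cre (-0.84 ± 0.20, adjusted p = 0.00544), and no other partner. It called 0.535% and 1.90% of all genes in these comparisons.

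Of the 12 genes of the basement membrane network, which joins laminin to collagen IV, 10 had negative log2 fold changes in EMdKO (median -0.31), 9 in EKO (median -0.17) and 8 in MKO (median -0.16). Nid2, which encodes the laminin-binding linker nidogen-2, ranged from 23.3 to 31.4 CPM in Control. It ranged from 13.3 to 22.3 in MKO and from 9.56 to 14.5 in EMdKO. Neither of these knockouts overlapped with Control, a lack of overlap that 3.08% of all genes showed in MKO and 3.67% in EMdKO. EKO overlapped with Control, at 16.9 to 40.3 CPM. The Nid2 change was -1.14 ± 0.27 in EMdKO (edgeR, adjusted p = 0.286) and -0.75 ± 0.27 in MKO (adjusted p = 0.355). Leaving out EKO mouse 1, a mouse of neither group, made the EMdKO change a call (-1.14 ± 0.19, edgeR quasi-likelihood, adjusted p = 0.0141), but calls over all genes then also rose, from 4 to 40 (0.291%). Nid1, for nidogen-1, ranged from 239 to 375 CPM in Control and from 142 to 223 in EMdKO (-0.78 ± 0.24; edgeR quasi-likelihood, adjusted p = 0.389). Col4a1 and Col4a2, the common collagen IV chains, chosen after their values were seen, completed the 4 of 12 network genes without overlap in EMdKO, beside 3.67% of all genes. Col4a1 averaged 319 ± 47.5 against 554 ± 64.5 CPM and Col4a2 93.3 ± 13.6 against 173 ± 12.2 (edgeR quasi-likelihood, adjusted p = 0.446 and 0.433). Dermal fibroblast markers leaned the same way, with 8 of 10 negative in EMdKO (median -0.28). Endothelial markers (4 of 10 negative, median 0.03) and pericyte and smooth muscle markers (2 of 9 negative, 0.19) did not. The part of these tissues in the network values was not tested. Col18a1, a vessel and epithelial basement membrane collagen gene, stood at -0.76 ± 0.29 in MKO (edgeR quasi-likelihood, adjusted p = 0.394), and Hspg2, the perlecan gene, at 0.22 ± 0.18 in EKO (adjusted p = 0.825).

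The hemidesmosome and anchoring fibril genes had slightly more positive than negative values. In EKO 7 of 11 were positive (median 0.08), in MKO 7 (0.20) and in EMdKO 8 (0.11), with 0 at an unadjusted p under 0.05. Basal keratinocyte markers, which share Itgb4 and Col17a1 with this list, were positive for 3 of 7 in EKO, 4 in MKO and 6 in EMdKO (median 0.33). Their part in these values was not tested. Col7a1 averaged 195 ± 55.6 CPM in EMdKO against 138 ± 54.6 in Control (0.50 ± 0.30), and Itgb4, the beta4 integrin that binds the epidermal anchoring laminin, 595 ± 88.5 against 478 ± 147 (0.32 ± 0.23; edgeR quasi-likelihood, adjusted p = 0.735 and 0.808). Of 10 other receptors, 9 were tested, and 5 were negative in EKO, 3 in MKO and 6 in EMdKO (medians -0.02, 0.04 and -0.04). In MKO, Itga1, a collagen and laminin receptor integrin, stood at 0.39 ± 0.23 and Dag1, dystroglycan, at 0.27 ± 0.18 (edgeR quasi-likelihood, adjusted p = 0.609 and 0.668). In EKO, Itga3, an integrin of basal keratinocytes, stood at -0.42 ± 0.20 (edgeR, adjusted p = 0.736). Of 9 netrin and processing enzyme genes, 8 were tested, and all 8 were negative in EKO (median -0.34) and in EMdKO (-0.26), against 3 in MKO (0.06). Dermal fibroblast markers were negative for 10 of 10 in EKO (median -0.33) and 8 of 10 in EMdKO, and their part was not tested. Mmp14, a membrane-bound metalloproteinase that can cleave laminin chains, averaged 265 ± 32.6 CPM in EKO and 404 ± 138 in Control (-0.61 ± 0.25, edgeR quasi-likelihood, adjusted p = 0.680).

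**Figure D5:**
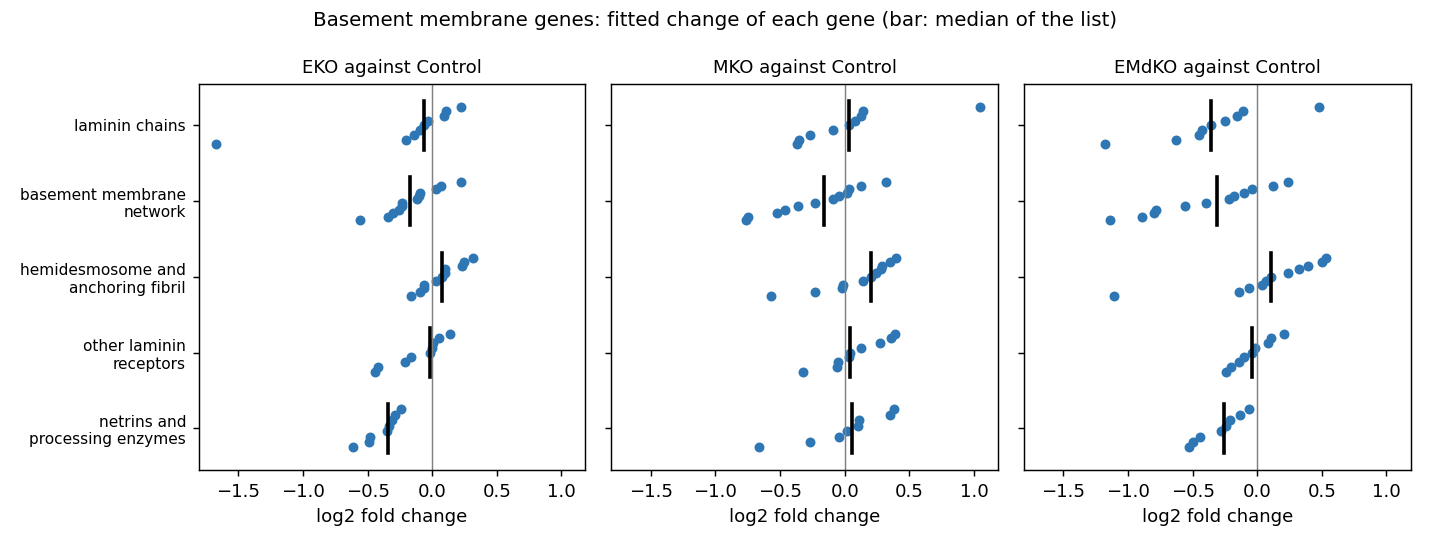
Fitted log2 fold change of every tested gene (dots) in the laminin list and 4 partner lists for each knockout against Control, with the list median as a bar. The basement membrane network leans below 0 in EMdKO (median -0.31), and the hemidesmosome list lies around 0.11. No dot passed the adjusted p threshold of 0.05.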

How the data were processed

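Per the labels' protocols, skin RNA was amplified with a panel of gene amplicons (Ion AmpliSeq Transcriptome Mouse). The authors deposited raw read counts for each RefSeq target. The submitters' processing notes name HTSeq 0.6.0 and DESeq2 1.18.1. Aligner, build and annotation: not given in the sources used here. Symbols were matched for 22562 of 23930 targets (RefSeq table of GRCm38.p6, then GENCODE vM21). The 5 HTSeq summary lines, 3.111 to 5.252% of reads, were left out.

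Groups and mouse numbers came from the titles. The fit used edgeR 4.0.16 under R 4.3.3, with TMM scaling, its default filter on low counts, 1 mean per group and all 16 libraries in a quasi-likelihood model, and p-values were BH adjusted over 13633 genes. SE is the absolute log2 change divided by the square root of F. Log2 CPM used a prior count of 2. Precision is limited by 4 mice per group and, for Lama1, by low counts. Alternatives were DESeq2 1.42.0, other scaling and filters, the compared groups alone, a mouse number block, muscle and hair covariates, and each library left out. The pipeline was tested on simulated data with increases in EKO and 1 dispersion for all genes, which does not cover decreases such as those of Lama1. Each laminin gene was named, then the 2 partner genes of smallest p in each direction per comparison against Control and the 3 genes most correlated with each member. Laminin genes, lists and tests were chosen with earlier results of these data known. Permutation tests used numpy 2.4.6. Some genes of these lists are not reported here.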

Additional observations from a re-analysis of the deposited data

Results flagged for a closer look

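Levels of 11 laminin genes in 4 groups gave 44 sets of 4 mice, and in each the highest and lowest mouse was compared with the others by the gap over the range (Dixon's test). Chance flags about 1 in 20 sets. The 3 sets that passed were all from MKO mouse 1. It had 21.0 CPM of Lama2 where the other MKO mice had 10.7 to 11.5, 143 CPM of Lama4 where they had 91.3 to 95.0, and 194 CPM of Lamc1 where they had 88.3 to 92.5. The gap over the range was 0.919, 0.927 and 0.960. The same mouse had the highest sums of skeletal muscle (139801 CPM, other MKO mice 47999 to 62590) markers and of endothelial (585), adipocyte (4104), pericyte and smooth muscle (1493) and Schwann cell markers (1278 CPM) of all 16 mice. Its sums of basal keratinocyte (6435 CPM) and of hair shaft and inner root sheath markers (17.1 CPM) were the lowest of the 16. The part of these tissues in the 3 values was not tested. No laminin gene passed the test of the interaction of both Cre genes (edgeR quasi-likelihood, BH adjusted p = 0.999 for Lama1, Lama5 and Lamc1).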

How the results depend on the processing

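Of 1917 recomputed log2 fold changes of the 9 laminin genes, 26 (all of Lama1) lost a call, 9 that were uncalled throughout moved by more than the SD within groups, and 0 called values changed sign. For EKO against MKO, 1 laminin gene was called in the fit reported and 0 with the compared groups alone, with the replicate block and with the hair score as a covariate (Lama1 adjusted p = 0.0655, 0.0631 and 0.136), and from 0 to 1 with a library left out. For the mean effect of Krt14-Cre the count was 1 under the 7 other alternatives and from 0 to 1 with a library left out. For EMdKO against MKO it was 0, and 1 with DESeq2 (Lama1). The number of partner genes called was 0 in the fit reported, and 1 with DESeq2 in EMdKO against Control and for LysM-Cre (Nid2), and 1 with the muscle score as a covariate for LysM-Cre (Nid2, adjusted p = 0.0487, 18 in all). With a library left out it ran from 0 to 1 in EMdKO against Control (Nid2 without EKO mouse 1, where 40 genes in all were called), from 0 to 1 in EKO against MKO (Itga2 without Control mouse 1, 349 in all) and from 0 to 2 for Krt14-Cre (Col4a1 and Col4a2 without EKO mouse 1, 356 in all). The cause of these changes was not tested. Same-numbered mice correlated at a median r of -0.11 over 24 pairs (from -0.54 to 0.61), so the numbers were not taken to pair mice, and the block changed no other laminin or partner call. No alternative moved the median of all genes by more than 0.04 on the log2 scale. Lama1 had 5 to 125 counts per library, which limits the precision of its fold changes.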
